A study of Mus musculus with 9 samples.

Results

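The Cyp4 genes of the mouse liver encode cytochrome P450 enzymes that hydroxylate fatty acids at the omega carbon, the end opposite to the carboxyl group. The 10 members described here were taken by name from the count table: Cyp4a10, Cyp4a14, Cyp4a12a, Cyp4a12b, Cyp4a31 and Cyp4a32 of the Cyp4a subfamily, Cyp4f13, Cyp4f14 and Cyp4f15 of the Cyp4f subfamily, and Cyp4v3. They are 10 of the 27179 genes in the table, and 9 of them passed the filter on low counts that left 16860 genes to test. Cyp4a12b did not pass and is given by its values only.

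RNA was sequenced from frozen liver sections of female mice on a C57BL/6 background, fed a cholesterol-rich high-fat diet (HFD) for 12 weeks from 8 weeks of age. All mice lacked Apoe. The 5 control libraries, titled WT, came from Apoe-/- mice, and the 4 others, titled DKO, came from Mif-2-/- Apoe-/- mice, which lacked in addition MIF-2, the cytokine encoded by Ddt. Both deletions were global, so no change can be assigned to the liver itself. Fold changes are given as Apoe-/- over Mif-2-/- Apoe-/- throughout.

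Omega-hydroxylation is a side route of fatty acid breakdown in the endoplasmic reticulum. The enzymes use electrons passed on from NADPH by P450 reductase, their product is oxidized by alcohol and aldehyde dehydrogenases to a dicarboxylic acid, and this is shortened in peroxisomes. Cyp4a10 and Cyp4a14 are textbook targets of the fatty acid receptor PPARalpha, Cyp4a12a and Cyp4a12b are best known from male liver and kidney, and the Cyp4f enzymes also act on leukotrienes and other eicosanoids.

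The 6 Cyp4a genes lie in 1 cluster on chromosome 4, from the start of Cyp4a12a to the end of Cyp4a32 (chr4:115299046-115621602, GRCm38, GENCODE M21 annotation). The 3 Cyp4f genes lie on chromosome 17 (Cyp4f15 at chr17:32685627-32703352, Cyp4f14 at chr17:32905070-32917342, Cyp4f13 at chr17:32924688-32947402), and Cyp4v3 lies on chromosome 8 (chr8:45304944-45333216). How alike the members are can be seen in the 30 coding bases of the haem-binding signature, the stretch around the cysteine that holds the haem iron of every P450 enzyme. They were taken from the reference transcripts, not from these libraries, and are exonic and coding in each gene, interrupted by an intron in all 10 members, so the span given is longer than the bases shown. Capitals mark bases that differ from Cyp4a10.
Cyp4a10 (chr4:115529502-115532543, plus strand; the same bases in Cyp4a31 and Cyp4a32): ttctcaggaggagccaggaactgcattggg
Cyp4a14 (chr4:115487299-115489805, minus strand): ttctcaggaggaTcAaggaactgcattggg
Cyp4a12a (chr4:115328986-115331846, plus strand; the same bases in Cyp4a12b): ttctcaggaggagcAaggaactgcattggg
Cyp4f13 (chr17:32924942-32925340, minus strand): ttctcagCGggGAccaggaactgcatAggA
Cyp4f14 (chr17:32905666-32906065, minus strand): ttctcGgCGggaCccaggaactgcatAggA
Cyp4f15 (chr17:32702398-32702801, plus strand): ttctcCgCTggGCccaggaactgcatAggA
Cyp4v3 (chr8:45307107-45308407, minus strand): ttTtcTgCTggaCcTCgAaactgTattggT

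The number of bases that differed from Cyp4a10 was 0 for Cyp4a31 and Cyp4a32, 1 for Cyp4a12a and Cyp4a12b, 2 for Cyp4a14, 6 for Cyp4f13 and Cyp4f14, 7 for Cyp4f15 and 10 for Cyp4v3. Over the whole coding sequence Cyp4a10 was 97.2% identical to Cyp4a32 and 96.6% to Cyp4a31, Cyp4a12a was 98.5% identical to Cyp4a12b, and Cyp4a10 was 76.4% identical to Cyp4a14 and 60.8% to Cyp4f14. This likeness limits which members can be counted apart. Reads were 100 bases long, and 12.7% of the 100-base windows of the Cyp4a10 transcript occurred exactly in another gene, as did 20.1% for Cyp4a32, 8.22% for Cyp4a31, 35.8% for Cyp4a12a and 36.2% for Cyp4a12b. Of the Cyp4v3 transcript, 5.77% of windows were shared with the predicted gene Gm45753. No window of Cyp4a14, Cyp4f13, Cyp4f14 or Cyp4f15 was shared, so full-length reads of these 4 genes without mismatches match no other gene. Shorter or mismatched reads were not examined. The split among Cyp4a10, Cyp4a31 and Cyp4a32 and between Cyp4a12a and Cyp4a12b is uncertain.

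The 9 libraries held between 2318148 and 10764182 counts. Ddt was at 1205 to 4820 counts in Apoe-/- and 6 to 27 counts in Mif-2-/- Apoe-/- libraries, as the labels state. All 10 hepatocyte markers were detected in all 9 libraries, and their summed level separated the libraries in a way that only partly followed genotype: it was 140692 to 198392 CPM (counts scaled to the normalized library size) in Apoe-/- libraries 1 to 4 but 63825 in Apoe-/- library 5, and 64887 to 93157 CPM in Mif-2-/- Apoe-/- libraries 1, 3 and 4 but 196851 in library 2. Alb, Apoa1 and Ttr, 3 of the 10 most abundant genes, made up 95.7% of this sum. The other 7 markers summed to 6114 to 7202 CPM in Apoe-/- libraries 1 to 4 and 2731 in Apoe-/- library 5. In Mif-2-/- Apoe-/- libraries 1 and 2 they summed to 6505 and 6735 CPM, and in libraries 3 and 4 to 3733 and 4106 CPM. Of these 7 markers, 4 had a log2 fold change above 0 (Serpina1a 0.998, G6pc 0.54, Ass1 0.19 and Hnf4a 0.06). The 3 below 0 were Tat (-1.05), Pck1 (-1.18) and Cps1 (-0.03). Fold changes of the members, their sums, shares and ratios are therefore given also without Apoe-/- library 5 or Mif-2-/- Apoe-/- library 2.

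By edgeR (quasi-likelihood test, adjusted p under 0.05 over all 16860 genes), 1 of the 9 tested members, Cyp4a14, was higher in Apoe-/- livers and 0 were lower. Over all genes tested the same rule called 0.0593% higher and 0.0712% lower, which is 10 and 12 genes, or 0.13% in either direction. DESeq2, the tool of the study, called 2 of the 8 members to which it gave an adjusted p, Cyp4a10 and Cyp4a14, both higher in Apoe-/- livers, and 0 lower, against 2.52% of genes called higher and 2.75% lower. At an unadjusted edgeR p under 0.05, 3 members were higher (Cyp4a10, Cyp4a14 and Cyp4f14) and 0 lower, against 6.52% and 8.99% of all genes. Without Apoe-/- library 5 edgeR called 1 member and DESeq2 3, and without Mif-2-/- Apoe-/- library 2 they called 2 and 3, all higher in Apoe-/- livers. The libraries of the genotypes did not overlap for 1 member, Cyp4a14, against 2.24% of all genes that did not overlap and were higher in Apoe-/-. The median log2 fold change of the 9 tested members was 0.26, and that of all genes tested was -0.17. Of the 9 members 6 had a log2 fold change above 0, against 43.5% of all genes.

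**Figure D1:**
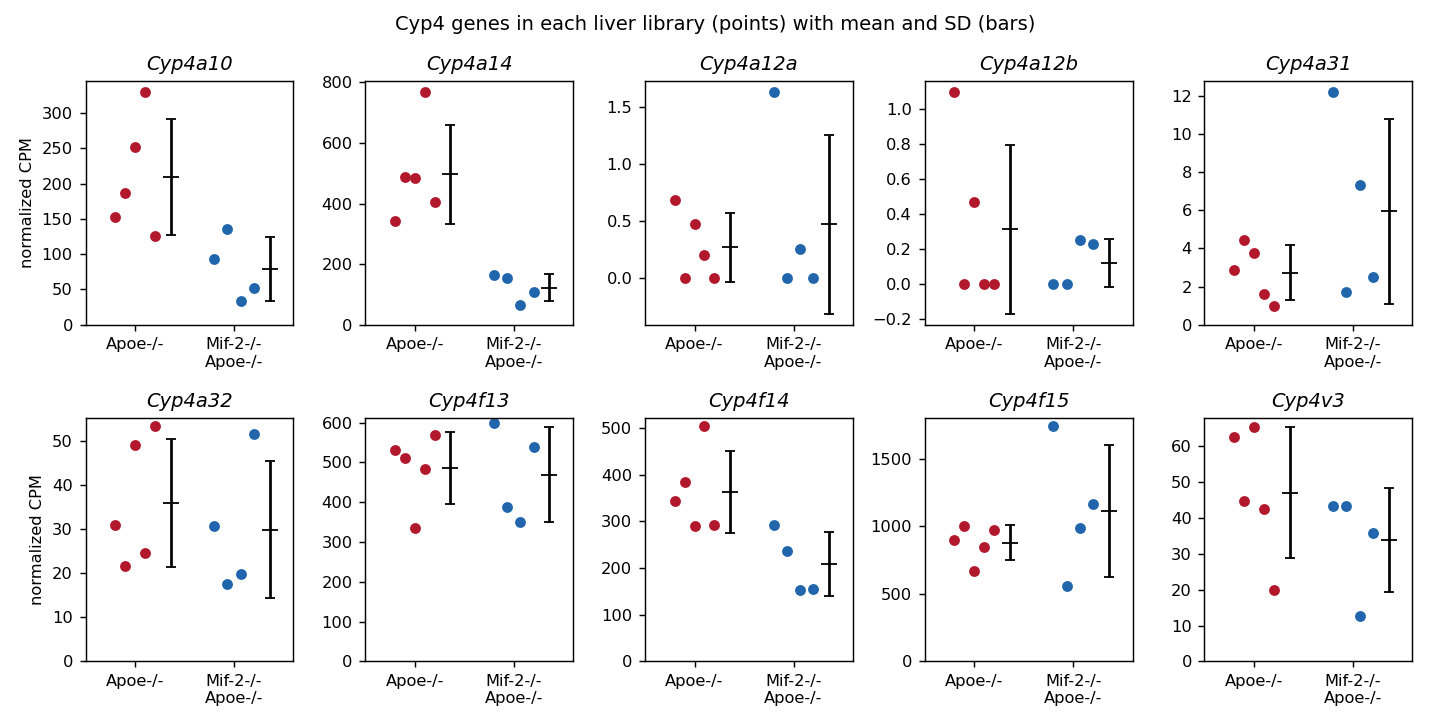
Normalized CPM (vertical axes, a separate linear scale for each gene) of the 10 Cyp4 genes in the 5 Apoe-/- and 4 Mif-2-/- Apoe-/- liver libraries. Points are libraries in replicate order and bars are mean and SD; the 5 Apoe-/- points of Cyp4a14 (343 to 769 CPM) all lie above the 4 others (65.8 to 163 CPM), and for every other gene the genotypes overlap.

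Cyp4a14 encodes a fatty acid omega-hydroxylase that is strongly induced by PPARalpha activators in mouse liver. It was at 343, 487, 484, 769 and 404 CPM in Apoe-/- libraries 1 to 5 and at 163, 153, 65.8 and 107 CPM in Mif-2-/- Apoe-/- libraries 1 to 4. Each Apoe-/- library was above each Mif-2-/- Apoe-/- library, and Apoe-/- library 4 was the highest of all. The means were 498 ± 163 (SD, n = 5) and 122 ± 44.8 CPM (SD, n = 4), a ratio of 4.08. The log2 fold change was 2.03 with a standard error of 0.36 (edgeR adjusted p = 0.0450, DESeq2 adjusted p = 2.2e-06), and the two-sided exact permutation test on log2(CPM + 0.5) gave p = 0.00794, the smallest that the 126 arrangements of 5 against 4 libraries allow. By unadjusted p it ranked 21 of the 22 genes that edgeR called.

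The Cyp4a14 call by edgeR stood close to its threshold. Without Apoe-/- library 5 the adjusted p was 0.0238 and without Mif-2-/- Apoe-/- library 2 it was 0.0280, but it was 0.0781, 0.0963, 0.0879 and 0.0890 without Apoe-/- libraries 1, 2, 3 and 4, and 0.0688, 0.138 and 0.134 without Mif-2-/- Apoe-/- libraries 1, 3 and 4. The log2 fold change stayed between 1.82 and 2.25 in these 9 fits, and DESeq2 called the gene in all 9.

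Cyp4a10, the other classical PPARalpha target of the family and a lauric acid omega-hydroxylase, was at 153, 186, 252, 330 and 126 CPM in Apoe-/- libraries and at 92.7, 136, 33.8 and 51.7 CPM in Mif-2-/- Apoe-/- libraries. Mif-2-/- Apoe-/- library 2 lay above Apoe-/- library 5, and otherwise the genotypes were apart. The means were 210 ± 82.3 (SD, n = 5) and 78.5 ± 45.5 CPM (SD, n = 4). With a log2 fold change of 1.42 and a standard error of 0.43, Cyp4a10 passed the threshold by DESeq2 (adjusted p = 0.0385) and not by edgeR (adjusted p = 0.170), and the exact permutation test gave p = 0.0159. Leaving out Mif-2-/- Apoe-/- library 2 raised the log2 fold change to 1.92 and gave an edgeR adjusted p of 0.0496, and leaving out Apoe-/- library 5 gave 1.55 and 0.0745. The DESeq2 call was kept without that library (adjusted p = 0.000697) and without Apoe-/- library 5 (adjusted p = 0.0146), and was lost without Apoe-/- libraries 1 to 4 (adjusted p = 0.0513, 0.0773, 0.102 and 0.134) and without Mif-2-/- Apoe-/- libraries 1, 3 and 4 (adjusted p = 0.0841, 0.134 and 0.147).

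Cyp4a32 and Cyp4a31, the near-copies of Cyp4a10, varied apart from it over the 9 libraries (Pearson r of log2(CPM + 0.5) of 0.02 and -0.40). Cyp4a32 was at 31.0, 21.7, 49.3, 24.6 and 53.4 CPM in Apoe-/- and at 30.7, 17.6, 19.9 and 51.7 CPM in Mif-2-/- Apoe-/- libraries, so that the genotypes covered nearly the same range. Its log2 fold change was 0.26 with a standard error of 0.48 (edgeR adjusted p = 0.842), and it was 0.06 without Apoe-/- library 5 and 0.14 without Mif-2-/- Apoe-/- library 2. Cyp4a31 was the rarer copy, at 0.968 to 4.42 CPM in Apoe-/- and 1.70 to 12.2 CPM in Mif-2-/- Apoe-/- libraries, with a log2 fold change of -1.13 and a standard error of 0.96 (edgeR adjusted p = 0.611), or -0.92 and -1.32 without these libraries. The ratio of Cyp4a32 to Cyp4a10 counts ran from 0.0744 in Apoe-/- library 4 to 1 in Mif-2-/- Apoe-/- library 4. The counts of Cyp4a10, Cyp4a31 and Cyp4a32 were also added up, which removes the question of how reads were divided among them. Adding up does not restore shared reads that were discarded, nor correct for reads counted more than once. The Apoe-/- sum was 248 ± 78.5 CPM (SD, n = 5) and the Mif-2-/- Apoe-/- sum 114 ± 40.9 CPM (SD, n = 4). Their ranges of 181 to 357 and 61.0 to 155 CPM did not overlap. The Apoe-/- mean was 265 CPM without library 5, and the Mif-2-/- Apoe-/- mean 101 CPM without library 2. In the edgeR fit with these counts added up, the log2 fold change was 1.12 with a standard error of 0.35 (adjusted p = 0.174).

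Cyp4a12a and Cyp4a12b, whose enzymes form omega-hydroxylated arachidonic acid in male mouse kidney, were close to the detection limit. Cyp4a12a had 5, 0, 1, 1 and 0 counts in Apoe-/- and 8, 0, 1 and 0 counts in Mif-2-/- Apoe-/- libraries. Cyp4a12b had 8, 0, 1, 0 and 0 counts and 0, 0, 1 and 1 counts. A library with 0 counts allows up to 3, which is 0.402 to 1.70 CPM depending on its depth and covers counting error only, so no difference was detectable at this depth. The edgeR log2 fold change of Cyp4a12a was -0.88 with a standard error of 1.40 (adjusted p = 0.813) and became 1.23 without Mif-2-/- Apoe-/- library 1, which held 8 of its counts. It was -0.60 without Apoe-/- library 5 and -1.09 without Mif-2-/- Apoe-/- library 2.

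Among the Cyp4f genes, Cyp4f14, which encodes the omega-hydroxylase of leukotriene B and of tocopherol side chains in mouse liver, was at 343, 385, 291, 504 and 292 CPM in Apoe-/- and at 293, 236, 153 and 154 CPM in Mif-2-/- Apoe-/- libraries. The genotypes touched at a single point, where Mif-2-/- Apoe-/- library 1 was level with Apoe-/- libraries 3 and 5. The means were 363 ± 88.1 (SD, n = 5) and 209 ± 68.3 CPM (SD, n = 4), the log2 fold change was 0.80 with a standard error of 0.31, and neither edgeR (adjusted p = 0.253) nor DESeq2 (adjusted p = 0.0804) called it, while its exact permutation p was 0.0238. DESeq2 called it without Apoe-/- library 5 (adjusted p = 0.0492) or without Mif-2-/- Apoe-/- library 2 (adjusted p = 0.0475), and edgeR in neither case (log2 fold change 0.86 and 0.96, adjusted p = 0.132 and 0.172).

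Cyp4f15 was the most abundant member. It was at 899, 1002, 671, 850 and 972 CPM in Apoe-/- and at 1744, 561, 987 and 1163 CPM in Mif-2-/- Apoe-/- libraries. The highest and the lowest library were both Mif-2-/- Apoe-/-, and the log2 fold change was -0.34 with a standard error of 0.33 (edgeR adjusted p = 0.659), -0.39 without Apoe-/- library 5 and -0.47 without Mif-2-/- Apoe-/- library 2. Cyp4f13 was at 334 to 569 CPM in Apoe-/- and 350 to 599 CPM in Mif-2-/- Apoe-/- libraries, with means of 485 ± 90.1 (SD, n = 5) and 469 ± 119 CPM (SD, n = 4). For Cyp4f13 the log2 fold change was 0.05 with a standard error of 0.29 (edgeR adjusted p = 0.958), and it was 0.06 without Mif-2-/- Apoe-/- library 2 but turned to -0.02 without Apoe-/- library 5 and to -0.07 without Mif-2-/- Apoe-/- library 3. Cyp4v3, an omega-hydroxylase of medium-chain and polyunsaturated fatty acids, was at 62.6, 44.6, 65.3, 42.3 and 19.9 CPM and at 43.3, 43.2, 12.6 and 35.9 CPM, with overlapping genotypes and a log2 fold change of 0.48 with a standard error of 0.47 (edgeR adjusted p = 0.669). It was 0.67 without Apoe-/- library 5 and 0.71 without Mif-2-/- Apoe-/- library 2.

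**Figure D2:**
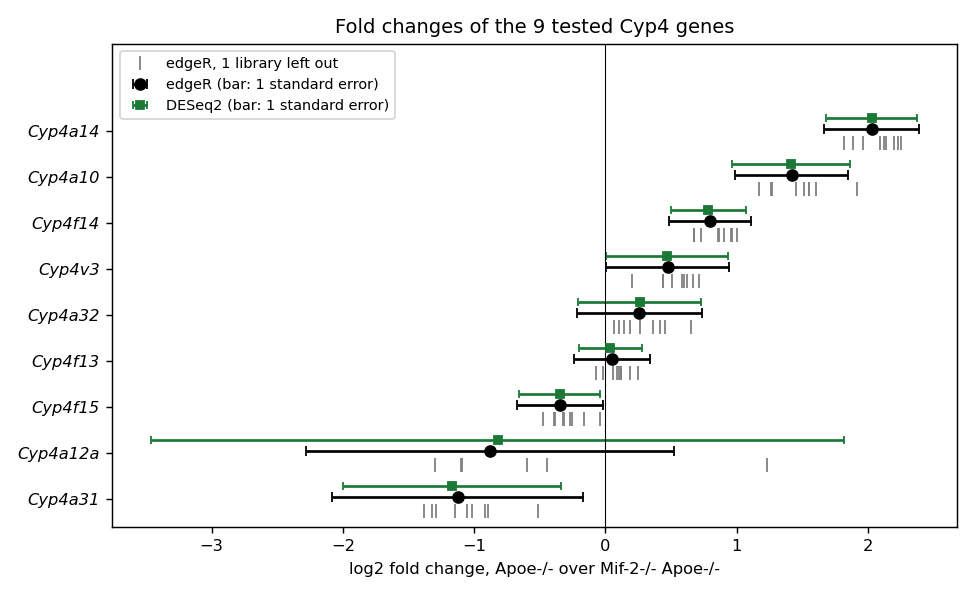
Log2 fold change (horizontal axis, Apoe-/- over Mif-2-/- Apoe-/-) of the 9 tested Cyp4 genes by edgeR (black) and DESeq2 (green), with bars of 1 standard error and grey ticks for edgeR fits with 1 library left out. Cyp4a14 (2.03) and Cyp4a10 (1.42) lie farthest above 0, and the bars of Cyp4a12a, with 0 to 8 counts a library, are the widest.

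Levels of different genes can be compared only per length, for which CPM was divided by the length of the reference transcript in kilobases (RPKM). Over the 9 libraries Cyp4f15 was at 453 ± 156 RPKM (SD, n = 9), Cyp4f13 at 273 ± 55.5, Cyp4f14 at 133 ± 49.8, Cyp4a14 at 132 ± 92.5, Cyp4a10 at 71.7 ± 44.8, Cyp4a32 at 21.8 ± 9.38, Cyp4v3 at 10.8 ± 4.51 and Cyp4a31 at 1.65 ± 1.42 RPKM, with Cyp4a12a and Cyp4a12b at 0.148 and 0.0950 RPKM. Cyp4f15 was above Cyp4f13, and Cyp4f13 above Cyp4f14, in 9 of 9 libraries. Cyp4f14 and Cyp4a14 did not have a fixed order, since Cyp4f14 was above in 5 of 9 libraries. Cyp4a14 was above Cyp4a10 in 8 of 9, Cyp4a10 above Cyp4a32 in 8 of 9, and Cyp4a12a above Cyp4a12b in 2 of 9 libraries.

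Cyp4a14 was above Cyp4f14 per length in Apoe-/- libraries 2 to 5, and below it in Apoe-/- library 1 and all 4 Mif-2-/- Apoe-/- libraries. In Apoe-/- livers Cyp4a14 was at 199 ± 65.5 RPKM and Cyp4f14 at 163 ± 39.7 RPKM (SD, n = 5), whereas in Mif-2-/- Apoe-/- livers they were at 48.9 ± 17.9 and 94.1 ± 30.7 RPKM (SD, n = 4). Of the summed RPKM of the 10 genes, Cyp4a14 made up 16.7% ± 4.08 (SD, n = 5) in Apoe-/- and 5.10% ± 2.20 (SD, n = 4) in Mif-2-/- Apoe-/- livers. The 6 Cyp4a genes together made up 20.7% to 34.9% in Apoe-/- and 7.44% to 18.7% in Mif-2-/- Apoe-/- libraries, and the 3 Cyp4f genes 63.4% to 77.8% and 79.7% to 92.1%. Mif-2-/- Apoe-/- library 2 came closest to the Apoe-/- make-up. The summed CPM of the 6 Cyp4a genes was 746 ± 235 (SD, n = 5) against 237 ± 84.9 (SD, n = 4), and that of the 3 Cyp4f genes 1727 ± 245 (SD, n = 5) against 1792 ± 626 (SD, n = 4). Without Apoe-/- library 5 the Apoe-/- means were 787 and 1701 CPM and the Cyp4a14 share 17.4%, and without Mif-2-/- Apoe-/- library 2 the means of that genotype were 213 and 1994 CPM and the share 4.03%.

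**Figure D3:**
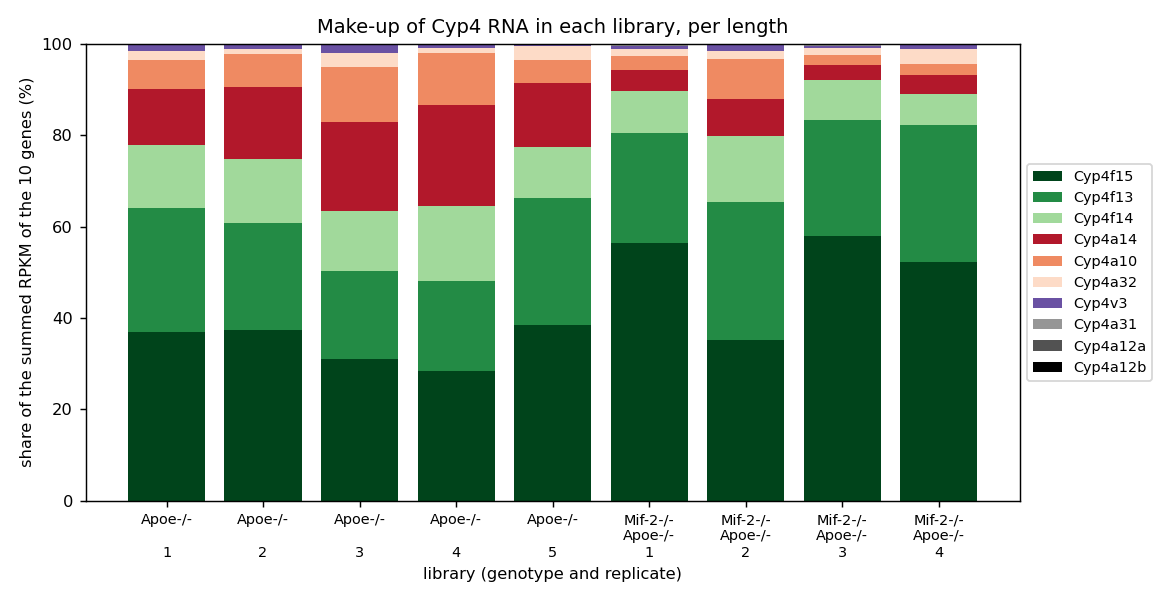
Share of each Cyp4 gene in the summed RPKM of the 10 genes (vertical axis, percent) in each of the 9 libraries, stacked. The red and orange blocks of Cyp4a14 and Cyp4a10 fill 18.7% to 33.5% of the Apoe-/- bars and 5.39% to 17.1% of the Mif-2-/- Apoe-/- bars. The green blocks of the Cyp4f genes fill most of every bar, 63.4% to 77.8% in Apoe-/- and 79.7% to 92.1% in Mif-2-/- Apoe-/- libraries.

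Ratios of counts within a library do not depend on how libraries are scaled. Cyp4a14 counts divided by Cyp4f15 counts ran from 0.381 to 0.905 in Apoe-/- and from 0.0666 to 0.273 in Mif-2-/- Apoe-/- libraries, without overlap. Cyp4f15 itself had a log2 fold change of -0.34. Cyp4a10 divided by Cyp4f15 ran from 0.130 to 0.389 and from 0.0342 to 0.242, and Cyp4f14 divided by Cyp4f15 from 0.300 to 0.593 and from 0.133 to 0.420. Both overlapped, also without Apoe-/- library 5 (lowest Apoe-/- values 0.170 and 0.382). Without Mif-2-/- Apoe-/- library 2 the overlap ended (highest values of that genotype 0.0532 and 0.168). Cyp4f14 divided by Cyp4f13, both of chromosome 17, ran from 0.513 to 1.04 and from 0.286 to 0.606, with overlap that ended without Apoe-/- library 5 (lowest Apoe-/- value 0.646) or without Mif-2-/- Apoe-/- library 2 (highest value of that genotype 0.489). Cyp4a14 divided by Cyp4a10 ran from 1.92 to 3.20 and from 1.13 to 2.06, with overlap that remained without either library.

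Across the 9 libraries, log2(CPM + 0.5) of Cyp4a10, Cyp4a14 and Cyp4f14 moved together, with Pearson r of 0.94 for Cyp4a10 and Cyp4a14, 0.91 for Cyp4a14 and Cyp4f14 and 0.90 for Cyp4a10 and Cyp4f14. With the mean of each genotype subtracted, r was 0.91, 0.82 and 0.75, and over the 7 libraries left without Apoe-/- library 5 and Mif-2-/- Apoe-/- library 2 it was 0.99, 0.92 and 0.92. Cyp4f13 and Cyp4f15 moved with each other (r = 0.68, and 0.74 within genotypes) and not with Cyp4a14 (r = 0.18 and -0.26, or 0.06 and -0.51 over these 7 libraries). These r describe 9 libraries that differ in depth and in hepatocyte transcripts, so points share more than the genes themselves.

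Since the libraries differ in hepatocyte transcripts, the members were set against the summed hepatocyte markers. In the 4 libraries with 63825 to 93157 CPM of markers, Cyp4a14 was at 404 CPM in Apoe-/- library 5 and at 163, 65.8 and 107 CPM in Mif-2-/- Apoe-/- libraries 1, 3 and 4. In the 5 libraries with 140692 to 198392 CPM, Cyp4a14 was at 343 to 769 CPM in Apoe-/- libraries 1 to 4 and at 153 CPM in Mif-2-/- Apoe-/- library 2. For Cyp4a10 the values were 126 CPM against 33.8 to 92.7 CPM at low markers and 153 to 330 CPM against 136 CPM at high markers, and for Cyp4f14 they were 292 CPM against 153 to 293 CPM and 291 to 504 CPM against 236 CPM. Each marker level held a single library of 1 of the genotypes, and no test was run within it. This grouping rests on Alb, Apoa1 and Ttr, which made up 95.7% of the marker sum. By the other 7 markers, Mif-2-/- Apoe-/- library 1 was at 6505 CPM. That is in the range of Apoe-/- libraries 1 to 4 (6114 to 7202 CPM), while Apoe-/- library 5 was at 2731 CPM. With the share of the 10 most abundant genes as a covariate, an alternative chosen after seeing the data, the log2 fold change was 1.88 for Cyp4a14 (edgeR adjusted p = 0.0454), 1.11 for Cyp4a10 (0.246) and 0.73 for Cyp4f14 (0.365). The part of hepatocyte transcripts in the Cyp4 values was not tested beyond these values. In bulk tissue, fewer cells of a type and less RNA per cell cannot be told apart.

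**Figure D4:**
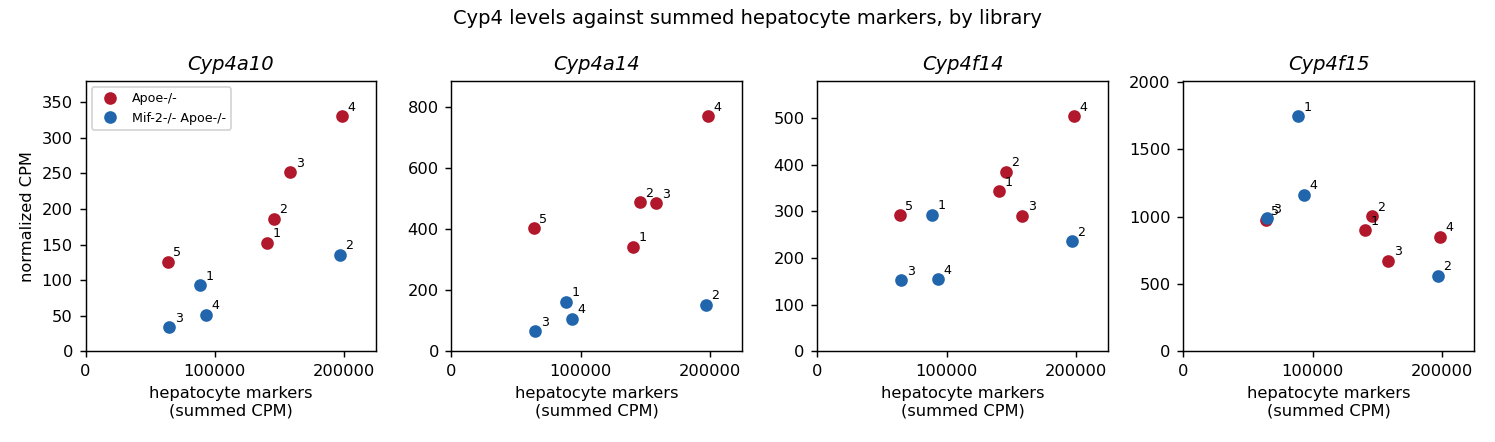
Normalized CPM of Cyp4a10, Cyp4a14, Cyp4f14 and Cyp4f15 (vertical axes) against the summed CPM of 10 hepatocyte markers (horizontal axes), 1 point a library, numbered by replicate. Mif-2-/- Apoe-/- library 2 sits with Apoe-/- libraries 1 to 4 on the right and Apoe-/- library 5 with the other Mif-2-/- Apoe-/- libraries on the left. Alb, Apoa1 and Ttr make up 95.7% of the marker sum.

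Markers of liver cell types were counted in 8 lists. DESeq2, which called 2.52% of all genes higher and 2.75% lower, called 1 of 10 Kupffer cell and macrophage markers higher in Apoe-/- livers (Cd5l), 1 of 10 hepatocyte markers lower (Pck1, an enzyme of gluconeogenesis), 1 of 6 T and B cell markers with an adjusted p higher (Cd3d), and none of the neutrophil, endothelial, stellate cell, cholangiocyte and erythroid markers, and edgeR called 0 in all 8 lists. At an unadjusted edgeR p under 0.05, 2 Kupffer cell and macrophage, 1 hepatocyte, 1 T and B cell and 1 erythroid marker were higher, and 2 hepatocyte, 1 neutrophil and 1 T and B cell marker were lower, against 6.52% and 8.99% of all genes. In Apoe-/- and Mif-2-/- Apoe-/- libraries the summed levels were 1119 to 2802 and 1338 to 1972 CPM for Kupffer cells and macrophages, 22.5 to 65.1 and 31.1 to 125 CPM for neutrophils, 311 to 829 and 254 to 657 CPM for endothelial cells, 599 to 1175 and 740 to 973 CPM for stellate cells, 90.8 to 306 and 66.5 to 304 CPM for cholangiocytes, 16.3 to 41.8 and 15.05 to 41.1 CPM for T and B cells, and 99.5 to 320 and 59.6 to 218 CPM for erythroid cells. The neutrophil marker Ly6g was at 0 in all 9 libraries. The part of these cells in the Cyp4 values was not tested.

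For the gene lists that follow, the shares of all genes called higher and lower were 2.52% and 2.75% by DESeq2 and 6.52% and 8.99% at an unadjusted edgeR p under 0.05. The genotypes did not overlap for 2.24% of all genes that were higher and 2.03% that were lower in Apoe-/- livers. Of the 4 genes listed as electron donors of P450 enzymes, edgeR called 0 (2 higher and 1 lower at an unadjusted p under 0.05), with a list median of 0.60. DESeq2 called 0 lower and 1 higher in Apoe-/- livers, Cyb5b (log2 fold change 1.08). Cyb5b encodes cytochrome b5 of the outer mitochondrial membrane, whereas omega-hydroxylation takes place in the endoplasmic reticulum. Cyb5a, the other cytochrome b5 gene listed, was at 1338 ± 567 and 694 ± 399 CPM (log2 fold change 0.95, DESeq2 adjusted p = 0.216). Por, the reductase that every microsomal Cyp4 enzyme depends on, named here after its values were seen, was at 451 ± 160 (SD, n = 5) and 837 ± 140 CPM (SD, n = 4), and its genotypes did not overlap. The log2 fold change of Por was -0.89 with a standard error of 0.32 (edgeR adjusted p = 0.218, DESeq2 adjusted p = 0.0507).

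The steps after omega-hydroxylation were described by lists of 8 and 18 genes. Of the 8 alcohol and aldehyde dehydrogenases, edgeR called 0 (2 higher and 0 lower at an unadjusted p under 0.05) and DESeq2 called 2 higher and 0 lower, with a median log2 fold change of 0.72, against 2.52% of all genes higher by DESeq2. Aldh1a1, a cytosolic retinal and fatty aldehyde dehydrogenase, was at 165 ± 54.6 against 55.2 ± 23.7 CPM (log2 fold change 1.58, DESeq2 adjusted p = 0.00426), and Aldh2, the mitochondrial acetaldehyde dehydrogenase, was at 512 ± 159 against 194 ± 74.2 CPM (1.39, DESeq2 adjusted p = 0.00334). The most abundant of them, Adh1, was at 3206 ± 1191 and 2052 ± 916 CPM with a log2 fold change of 0.64 (DESeq2 adjusted p = 0.377).

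Of the 18 genes of dicarboxylic acid and peroxisomal beta-oxidation, edgeR called 0 (4 higher and 1 lower at an unadjusted p under 0.05), and DESeq2 called 4 higher and 1 lower among 17 with an adjusted p, against 2.52% and 2.75% of all genes, with a median of 0.33. The 4 were Ehhadh, the peroxisomal bifunctional enzyme with a preference for dicarboxylic acids (62.2 ± 23.2 against 17.6 ± 6.35 CPM, log2 fold change 1.81), Scp2, a peroxisomal thiolase and sterol carrier (1.73), Hsd17b4, the second bifunctional enzyme (1.27), and Acox2, the oxidase of branched chains and bile acid intermediates (1.16). The gene called lower was Acot3, a peroxisomal acyl-CoA thioesterase (45.6 ± 11.1 against 120 ± 46.7 CPM, log2 fold change -1.40). Acaa1b, a highly expressed peroxisomal thiolase, had a log2 fold change of -0.10 (DESeq2 adjusted p = 0.843).

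**Figure D5:**
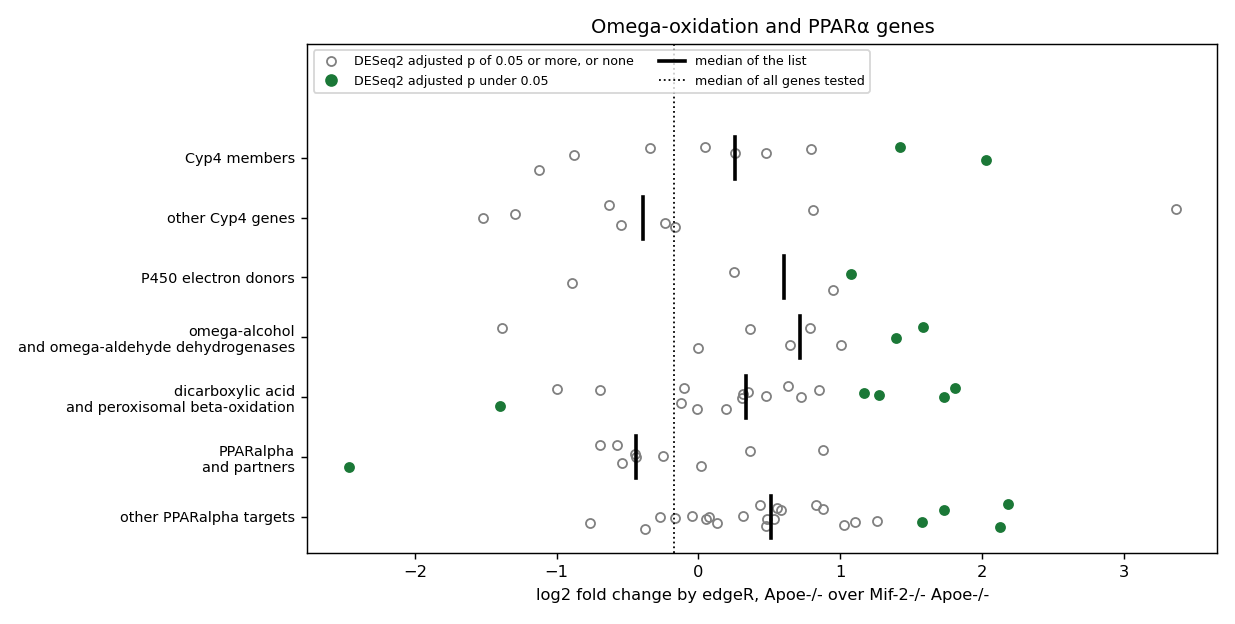
Log2 fold change by edgeR (horizontal axis, Apoe-/- over Mif-2-/- Apoe-/-) of each tested gene of the Cyp4 family and of 6 lists around it, with green points for a DESeq2 adjusted p under 0.05. Vertical spread within a list carries no meaning; list medians (bars) run from -0.44 for PPARalpha and its partners to 0.72 for the dehydrogenases, and the dotted line is the median of all genes tested, -0.17.

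PPARalpha itself and its partners had a median below that of all genes. Of the 10 genes edgeR called 0 (1 higher and 1 lower at an unadjusted p under 0.05), and DESeq2 called 0 higher and 1 lower, with a median of -0.44. The gene called lower was Ppargc1b, a coactivator of nuclear receptors, at 12.4 ± 6.78 against 68.1 ± 21.8 CPM (log2 fold change -2.47, DESeq2 adjusted p = 0.000115, edgeR adjusted p = 0.0731). Its genotypes did not overlap, against 2.03% of all genes that did not overlap and were lower in Apoe-/-. Ppara, the receptor gene, named here after its values were seen, was at 134 ± 33.4 and 199 ± 112 CPM (log2 fold change -0.58, edgeR adjusted p = 0.472). The most abundant, Rxra, its dimer partner, and Nr0b2, a corepressor, had log2 fold changes of 0.36 and 0.88 and were not called by either tool.

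Among 24 other PPARalpha targets, edgeR called 0, DESeq2 called 4 higher and 0 lower, and 7 were higher and 0 lower at an unadjusted edgeR p under 0.05, with a median of 0.51. Over all genes these shares were 2.52% and 2.75% by DESeq2 and 6.52% and 8.99% by unadjusted p. Retsat, a retinol saturase, had a log2 fold change of 2.18, Acot1, a cytosolic acyl-CoA thioesterase, of 2.13, the hepatokine gene Fgf21 of 1.73 and Plin2, a coat protein of lipid droplets, of 1.58. Plin2 was at 1046 ± 374 against 350 ± 75.7 CPM and Acot1 at 36.6 ± 6.55 against 8.37 ± 1.48 CPM, both without overlap. Over all genes, 2.24% did not overlap and were higher in Apoe-/- livers. Fabp1, the abundant fatty acid-binding protein of liver, had a log2 fold change of 0.88 (DESeq2 adjusted p = 0.460).

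The medians of these 5 lists were also taken without the libraries that stood apart. Without Apoe-/- library 5 they were 0.77 for electron donors, 0.87 for dehydrogenases, 0.35 for beta-oxidation, -0.56 for PPARalpha and partners and 0.60 for its other targets, beside -0.34 for all genes. Without Mif-2-/- Apoe-/- library 2 they were 0.94, 1.002, 0.39, -0.27 and 0.74, beside -0.09.

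Sex-biased liver genes were counted because Cyp4a12a and Cyp4a12b are male-biased. Of 14 tested male-biased genes, edgeR called 0 (3 higher and 1 lower at an unadjusted p under 0.05), with a median of 0.51. Among 11 with an adjusted p, DESeq2 called 2 higher in Apoe-/- livers (Cyp2d9 and Elovl3) and 1 lower (Selenbp2). Of 18 tested female-biased genes, edgeR called 1 higher (A1bg) and 2 lower (Cyp2b9 and Cyp2b13), with a median of 0.30. Over all genes edgeR called 0.0593% higher and 0.0712% lower. DESeq2 called 2 female-biased genes higher and 2 lower among 15 with an adjusted p, against 2.52% and 2.75% of all genes. A1bg was at 879 ± 601 against 90.6 ± 42.1 CPM. Cyp2b9 was at 4.48 ± 5.10 against 723 ± 423 CPM (log2 fold change -7.35) and Cyp2b13 at 1.54 ± 1.56 against 402 ± 226 CPM (-8.12). The list names describe normal liver, and all mice here were female.

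The 10 other Cyp4 genes of the annotation were low, and 8 of them were tested with 0 called by edgeR or DESeq2, 0 at an unadjusted edgeR p under 0.05 and a median log2 fold change of -0.39. Cyp4b1 (20.0 CPM over the 9 libraries) and Cyp4f18 (19.2 CPM) were the highest, with log2 fold changes of -0.24 and 0.81, followed by Cyp4f17 (9.89 CPM, -1.30) and Cyp4f16 (9.61 CPM, -0.55). Cyp4x1, Cyp4f39, Cyp4f37 and Cyp4a30b had means of 3.81, 3.36, 1.97 and 1.75 CPM.

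For 4 members, the 5 genes most like them were found among the 8146 tested genes averaging 10 CPM or more, by Pearson r of log2(CPM + 0.5) over the 9 libraries. They were Aldh1a1 (r = 0.97), Tubb2a, Atf5, Echs1 and Clpx for Cyp4a14, Fcer1g (r = 0.98), Gstm2, Fahd2a, Cdk2ap2 and Lamp2 for Cyp4a10, Ndfip1 (r = 0.99), Aamp, Man2a1, Nectin1 and Pgk1 for Cyp4f14, and Emc4 (r = 0.96), Ing4, Aars2, Tollip and Exosc7 for Cyp4v3. The omega-aldehyde dehydrogenase list thus shared 1 gene, Aldh1a1, with the 5 nearest to Cyp4a14. Within genotypes, r with Cyp4a14 was 0.94 for Aldh1a1, 0.85 for Tubb2a, 0.78 for Atf5, 0.90 for Echs1 and 0.84 for Clpx. For the genes of Cyp4a10, Cyp4f14 and Cyp4v3 it ran from 0.89 (Man2a1) to 0.99 (Gstm2). Each r over the 9 libraries is among the highest of 8146 by selection, and all are a description of these libraries only.

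Promoter windows of 300 bases around annotated starts were taken from RefSeq (GRCm38.p6) for 5 members, Cyp4a32, Cyp4v3, Cyp4f13, Cyp4f14 and Cyp4f15, in 8 windows. Several of these are windows of Cyp4f14 that overlap one another. None of the 8 held, on either strand, the direct repeat of PPARalpha and its partners, AGGTCA followed after 1 base by AGGTCA, which 0.0396% of 32851 promoters hold, nor AGGTCA alone (16.3%), nor the D-box letters TTATGTAA (0.938%) or TTACGTAA (0.119%). The direct repeat contains AGGTCA, so these motifs overlap. At these shares of all promoters, absence from 8 windows is uninformative. Promoters of Cyp4a10, Cyp4a14, Cyp4a12a, Cyp4a12b and Cyp4a31 were not analysed here.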

How the data were processed

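Liver RNA of 9 libraries was analysed. Per the paper's methods, lysates of frozen, OCT-embedded sections were combined, poly(A) RNA was taken up on oligo-dT beads and Smart-seq2 libraries, which do not keep strand, were sequenced as paired ends of 100 bases. The authors used FastQC, cutadapt and HISAT2 (mm10, per the submitters' processing notes) and deposited raw read counts on exons per Entrez identifier; the counting tool and its handling of reads that match several genes are not given in the sources used here. The paper gives 4 mice per group, 5 Apoe-/- libraries were analysed and none was removed. Labels do not tie libraries to animals, so p-values measure the spread between these libraries.

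The table held 27179 genes and 1 second header line, left out. RefSeq symbols matched 25275 identifiers. A gene was kept if 3 or more libraries of 1 genotype had a count of 1 or more, and the 10 most abundant were excluded, leaving 16860 genes for edgeR 4.0.16 (quasi-likelihood, TMM, Benjamini-Hochberg). CPM are TMM-normalized over the tested genes. Standard errors are log2 fold changes over the root of F. DESeq2 1.42.0, with no adjusted p for 9102 genes, ran on all genes with a count. Two-sided exact permutation tests were run for each member on log2(CPM + 0.5), without adjustment. RPKM used the GENCODE M21 transcript with the longest coding sequence, which for Cyp4a32 is hardly longer than that sequence. Sequences were handled with Biopython 1.88. Scripts were tested on simulated data.

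Genes named are the members, the members of 4 pathway lists called by either tool or among the 2 most abundant of their list, other Cyp4 genes with at least 1 CPM, Ddt and the 5 most alike genes, unless stated, and some of them are not reported here. The members and lists were chosen with earlier results of these data known. Alternatives were RLE and TMMwsp scaling, no filter or filterByExpr, the top 10 genes kept, near-identical paralogs summed, a replicate block, DESeq2, other pseudocounts and each library left out, and, added after seeing the data, the top 10 share as a covariate, further DESeq2 fits, and sums, shares, ratios and correlations without single libraries.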

Additional observations from a re-analysis of the deposited data

Results flagged for a closer look

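In 20 groups of libraries examined, 1 for each member and genotype, 1 held a library far from the others. Cyp4a12a was at 1.63 CPM in Mif-2-/- Apoe-/- library 1 and at 0.252 CPM or below in the other 3, and the gap to the nearest was 0.845 of the whole range. The value rests on 8 counts, and chance alone flags about 1 group in 20.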

How the results depend on the processing

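The count of 22 genes called by edgeR was 10 higher and 12 lower in Apoe-/- livers, 15 and 12 with RLE and 18 and 12 with TMMwsp, which moved the median of all genes from -0.17 to 0.0015 and that of the Cyp4 genes from 0.26 to 0.44. In all scalings and filters 1 Cyp4 gene was called. With DESeq2 the counts were 739 genes, 2 Cyp4 genes, 1 gene of the electron donor list (Cyb5b), 2 dehydrogenases, 5 genes of dicarboxylic acid and peroxisomal beta-oxidation, 1 of PPARalpha and partners and 4 other PPARalpha targets. The top 10 share as a covariate gave 35 genes and 1 PPARalpha target. With a replicate block over the 8 libraries numbered 1 to 4, edgeR called 505 genes, against 126 in these libraries without the block. The block fit called 2 Cyp4 genes (Cyp4a10 with an adjusted p of 0.0475), 2 dehydrogenases, 3 of beta-oxidation, 1 of PPARalpha and partners and 2 targets. Deviations of same-numbered libraries correlated at 0.138, -0.016, 0.012 and -0.026. The labels do not state whether the numbers pair the libraries, and such correlations cannot exclude a shared factor of small effect, so pairing is unknown.

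With 1 library left out the counts ran from 9 (without Apoe-/- library 3) to 262 genes (without Mif-2-/- Apoe-/- library 2), from 0 to 2 Cyp4 genes, from 1 to 3 Cyp4 genes by DESeq2, from 0 to 1 dehydrogenase, 0 to 2 of beta-oxidation, 0 to 1 of PPARalpha and partners and 0 to 2 targets. Without Apoe-/- library 5, 126 genes were called.

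Directions turned only for Cyp4 genes that were not called: Cyp4a12a (0.19 with the block, 0.38 with the covariate, and -1.30 to 1.23 with 1 library left out, the latter without Mif-2-/- Apoe-/- library 1), Cyp4f13 (-0.0075 with the block, and -0.068 to 0.25 with 1 library left out, below 0 without Apoe-/- library 5 at -0.02 and without Mif-2-/- Apoe-/- library 3) and Cyp4f15 (0.018 with the covariate). The causes were not tested. Permutation p-values of the called genes were the same with a pseudocount of 0.1 or 1. Depth limits Cyp4a12a and Cyp4a12b, where 3 counts equal up to 1.70 CPM.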

Other observations

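Several of the rare Cyp4 genes had most of their counts in 1 or 2 libraries. Cyp4a30b had 30 counts in Apoe-/- library 3 and at most 3 in any other. Cyp4f37 had 37 counts in Apoe-/- library 4, 40 in Mif-2-/- Apoe-/- library 3, 1 in Apoe-/- library 5 and 0 in the other 6. Cyp4x1, a gene best known from brain, had 48 counts in Apoe-/- library 5 and 82 in Mif-2-/- Apoe-/- library 3, against 0 to 11 elsewhere. Cyp4f39 had 50 counts in Mif-2-/- Apoe-/- library 3, 31 in Apoe-/- library 5 and 16 in Apoe-/- library 3, against 0 to 7 elsewhere, and Cyp4a29 had 25 counts in Mif-2-/- Apoe-/- library 3 and 1 in library 1, with 0 in the other 7. The libraries concerned differ from gene to gene, although Mif-2-/- Apoe-/- library 3 had the most counts of 4 of these 5 genes.

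Cyp4a32 matched Cyp4a10 count for count in Mif-2-/- Apoe-/- library 4, with 226 reads each, while in Apoe-/- library 4 it had 122 against 1639. In Apoe-/- library 5 and Mif-2-/- Apoe-/- library 4 it was at its highest levels, 53.4 and 51.7 CPM.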
